A study of Bos taurus with 8 samples.

Results

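Mitochondrial ribosomal proteins are the proteins, named MRPL or MRPS with a number, that build the large and the small subunit of the ribosome inside mitochondria. The genes were chosen by symbol, from the RefSeq accession of each array probe and with no use of their signals. Of 78 such genes in the RefSeq table of the cattle genome, 75 had a named probe, out of 12603 genes named on the array. MRPL36, MRPL40 and MRPL55 had none. All 75 were well above background on all 8 arrays, so that the filter on dim genes removed no member, and none had a missing or floored value.

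The mitochondrial ribosome translates the few messenger RNAs encoded in mitochondrial DNA, whose products are core subunits of the respiratory chain and ATP synthase. All of its proteins are encoded in the nucleus, made on cytosolic ribosomes, imported, and assembled on mitochondrial rRNA. Many have a counterpart in bacterial ribosomes, while others are found only in mitochondria. In the early embryo mitochondria mature as the trophectoderm, the outer layer that will form the placenta, begins to transport ions and water.

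Total RNA of 8 samples from HanWoo, a Korean native cattle breed, was hybridized with Cy3 to Agilent bovine oligo microarrays. Bovine embryo-derived stem-like cells (eSLCs) are colonies grown from blastocysts on inactivated murine STO feeder cells in 3i medium, which holds the inhibitors PD184352, SU5402 and CHIR99021. The IVP-eSLCs, from in vitro produced embryos, were line I2 at passage 35 and line I9 at passage 30, the NT-eSLCs, from somatic cell nuclear transfer embryos with ear skin donor cells, were N2 at passage 36 and N7 at passage 30, and the PA-eSLCs, from parthenogenetic embryos, were P1 at passage 31 and P4 at passage 36. Bovine somatic cells (SCs), whose tissue and animal age the labels do not give, were grown without inhibitors or a stated feeder in DMEM with serum and taken at passages 5 and 10. Every eSLC line was therefore measured once. Medium, feeder and passage number cannot be told apart from cell type. Nothing states that the SC passages are separate cultures. For these reasons p-values measure the spread between these samples. Array number limits the precision: each condition had 2 arrays.

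Signals are background-subtracted intensities divided by the 75th percentile of the array, which is set to 1000. Between 71.2% and 76.7% of the spots of an array were well above background. Slide 1 held I2, I9, N7 and SC P5, and slide 2 held N2, P4, P1 and SC P10. The cell labels were checked with marker genes. Of 8 fibroblast markers, all were called lower in eSLCs, with summed signals of 5374 to 10559 on the eSLC arrays and 503587 to 604079 on the SC arrays, and LUM and PDGFRB lay at the signal floor on some eSLC arrays. All 7 epithelial and trophectoderm markers were called higher, with sums of 338909 to 870421 against 2399 to 3759.7, and CDH1 and CDX2 lay at the floor on both SC arrays. The pluripotency markers NANOG and POU5F1 were not called (adjusted p = 0.208 and 0.164, limma). Both had a positive difference, the smaller 0.77 and the larger 2.05. SOX2 was called lower, with a difference of -2.91 (adjusted p = 0.00101, limma). The paper reports OCT4 (POU5F1) and NANOG as higher in IVP-eSLCs than in SCs, with real-time PCR as further evidence. The part of the change of cell type in the results below was not tested. In bulk RNA, fewer cells of a type and less RNA per cell cannot be told apart.

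The first comparison set all eSLCs against SCs. By limma, 38 of the 75 genes were called higher in eSLCs (50.7%, where 27.5% of all 10958 genes tested were called higher) and 2 were called lower (2.67%, against 19.6% of all genes). The call rule was an adjusted p under 0.05, by Benjamini-Hochberg over all genes tested. The mean was higher in eSLCs for 69 genes and lower for 6, where 6554 of all 10958 genes were higher and 4377 lower. Members with a higher mean numbered 63 under quantile normalization and 56 in the authors' normalized table. Over the 75 genes the median log2 difference was 0.59, which is 1.5-fold, and over all genes tested it was 0.23. All 6 eSLC arrays lay above both SC arrays for 49 members (34% of all genes) and below both for 2 (23.6% of all genes).

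The differences ran from -0.998 to 1.61 on the log2 scale. At least 2-fold higher as well as called were 14 members (18.7%), near the 19.7% of all genes that met both criteria upwards. No member was 2-fold lower, a criterion that 15.7% of all genes met. The members also varied less than all genes tested did. The median SD among the 6 eSLC arrays was 0.255 on the log2 scale for the members and 0.353 over all genes tested. The SC arrays differed by a median of 0.153 and 0.210. The members were bright, with 67 above 1000 on every array, and no genes matched for brightness were compared. Whether the lower spread goes beyond that of bright genes was therefore not tested.

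**Figure D1:**
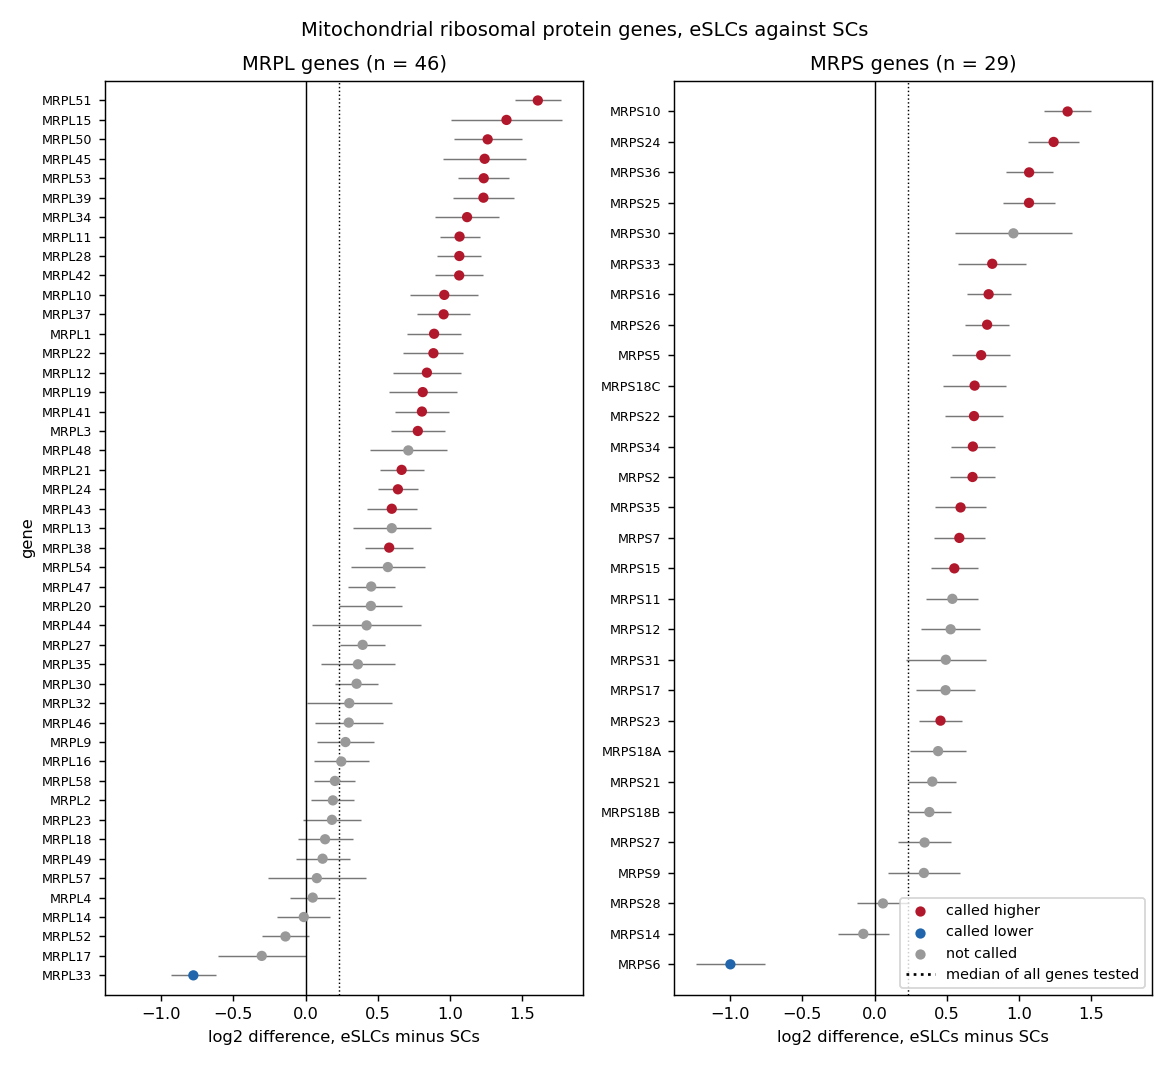
Log2 difference (eSLCs minus SCs, x axis) of each of the 46 MRPL and 29 MRPS genes (y axis), as points with bars of 1 standard error from limma over 8 arrays. Red genes were called higher (38), blue genes lower (2, MRPL33 and MRPS6), and the dotted line is the median of all genes tested, 0.23. MRPL53 is shown by its brightest probe, and other probes of it fell.

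The count rests on both SC arrays and on the scaling. Without SC P5, 14 members were called higher, where 13.5% of all genes were, and without SC P10, 19 were, where 15.4% were. Quantile normalization moved the median of all genes to 0.12 and that of the members to 0.43. The members thus lay 0.31 above all genes in place of 0.36, and 25 were called higher (33.3%, against 24.5% of all genes). With the authors' normalized values 1 member, MRPL51, was called higher (1.33%), a share below the 13.4% of all genes. The median there was 0.30 against 0.06 over all genes. Of the 38 genes, all kept a positive difference under quantile and median scaling and 36 did in the authors' table.

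Calls lay among both kinds of symbol. Of all genes tested, 27.5% were called higher and 19.6% lower. Of the 46 MRPL genes, 22 were called higher (47.8%) and 1 lower, with a median difference of 0.59. Of the 29 MRPS genes, 16 were called higher (55.2%) and 1 lower, with the same median of 0.59. These counts are by symbol, and MRPS18A, MRPS30 and MRPS36 are not proteins of the small subunit. By ancestry, 20 of 44 proteins shared with bacterial ribosomes were called higher (45.5%) and 2 lower (median 0.53). Among 30 mitochondria-specific ones, 17 were called higher (56.7%) and 0 lower (median 0.64). Of the 10 mitochondria-specific proteins of the small subunit, 7 were called higher, and of its 16 proteins shared with bacteria, 8 were. MRPS36 was set apart from these classes, since it is known as a subunit of the alpha-ketoglutarate dehydrogenase complex and not of the ribosome.

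The mitochondria-specific proteins of the large subunit included the largest rise. MRPL51, which showed it, had normalized signals of 7345 in I2, 9301 in I9, 8748 in N2, 7970.5 in N7, 7765 in P1 and 7959 in P4, compared with 2634 in SC P5 and 2721 in SC P10. Every eSLC array lay far above both SC arrays, and the log2 difference was 1.61 (standard error 0.158, adjusted p = 0.000614, limma). It was called in each origin and under every alternative but 1, the processed signal of the scanner software. Its other probes, both dimmer, differed by 0.42 and -0.02 and were not called.

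MRPL50, MRPL45 and MRPL39 also belong to this class, and MRPL45 is known to lie at the exit of the peptide tunnel and to tie the ribosome to the inner membrane. MRPL50 had signals of 4009.6 in I2, 2534 in I9, 2959 in N2, 3430.4 in N7, 5393 in P1 and 5839 in P4, compared with 1388 in SC P5 and 1860.3 in SC P10. The PA lines were the highest and I9 the lowest of the eSLCs, with no overlap with SCs, and the difference was 1.26 (standard error 0.235, adjusted p = 0.00697, limma). MRPL45 read 17597 in I2, 11838 in I9, 13641 in N2, 10767 in N7, 27814 in P1 and 15557 in P4, compared with 6740.4 in SC P5 and 6298 in SC P10, where P1 stood above the rest, and differed by 1.24 (standard error 0.286, adjusted p = 0.0154). For MRPL39 the signals were 6512 to 9974 on the 6 eSLC arrays and 3349.9 and 3991 on the SC arrays, a difference of 1.23 (standard error 0.21, adjusted p = 0.00501). The calls of MRPL50 and MRPL39 were lost without SC P5 and that of MRPL45 without either SC array.

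MRPL53 was the single member with probes called in opposite directions. Its brightest probe gave 16840.3 in I2, 17231 in I9, 13293 in N2, 16797 in N7, 17324 in P1 and 15393 in P4, compared with 7652 in SC P5 and 6116 in SC P10, with all eSLC arrays above the SC arrays and a difference of 1.23 (standard error 0.177, adjusted p = 0.0026, limma). A second probe read 468 to 943 on the eSLC arrays and 1288 and 1221 on the SC arrays, a difference of -0.92, and a further probe differed by -0.90. Both of these falls were called, and the remaining probe differed by 0.45 and was not. The mean of the probes gave -0.03, so that no direction is given for MRPL53, which the 38 genes include by its brightest probe.

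Proteins shared with bacteria held the other rises of the large subunit. MRPL15 had signals of 2232 in I2, 3960.1 in I9, 3660.0 in N2, 3735 in N7, 1559 in P1 and 3041 in P4, compared with 826 in SC P5 and 1464 in SC P10. All eSLC arrays were higher than SCs, but P1 lay close to SC P10, and the difference of 1.39 had the widest error of the genes called (standard error 0.382, adjusted p = 0.0277, limma). Its call was lost under 11 alternatives, among them leaving out I9, N2, N7, P4, SC P5 or SC P10. MRPL34 read 2641 to 4814 on the 6 eSLC arrays and 1446 and 1592 on the SC arrays, with N7 the highest, and was 1.12 higher (standard error 0.224, adjusted p = 0.00905). This call was lost without SC P5 and without SC P10.

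MRPL11 belongs to the stalk, the flexible arm that recruits translation factors to the ribosome. Its signals were 15360.5 in I2, 16225 in I9, 17454 in N2, 15869 in N7, 18704 in P1 and 17694 in P4, compared with 8021 in SC P5 and 8075 in SC P10. The eSLC arrays kept within a narrow band well above the SC arrays, and the difference was 1.07 (standard error 0.138, adjusted p = 0.00177, limma). Of the 5 stalk proteins measured, 4 were called higher (80%, against 47.8% of the MRPL genes and 27.5% of all genes). Their median difference was 0.96. MRPL10, the base of the stalk, was 0.96 higher (standard error 0.234, adjusted p = 0.0185), and MRPL12, which is also known to bind the mitochondrial RNA polymerase, was 0.84 higher (standard error 0.233, adjusted p = 0.0289). The fifth, MRPL54, had overlapping arrays and was not called (0.57, adjusted p = 0.115). One of the 4, MRPL53, is the gene whose probes disagreed, and the second probe of MRPL10 was not called (0.50).

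Other parts of the large subunit had lower shares of calls than the stalk, from 5 and 7 genes. In the central protuberance, which contacts the small subunit, 1 of 5 was called higher (20%, below the 27.5% of all genes). This was MRPL38, with 0.58 (standard error 0.166, adjusted p = 0.0323, limma). MRPL58, which can free peptides from stalled ribosomes, was in this group and was not called (0.20, adjusted p = 0.282). Around the exit tunnel 3 of 7 were called higher, MRPL45, MRPL22 and MRPL24. This share of 42.9% was near the 47.8% of the MRPL genes, against 27.5% of all genes. MRPL17, of the same group, had a mean 0.30 lower (-0.30 as eSLCs minus SCs, adjusted p = 0.443), with signals of 23767 in I2, 12558 in I9, 12979 in N2, 20656 in N7, 22813 in P1 and 21011 in P4, compared with 24079 in SC P5 and 21330.4 in SC P10, where I9 and N2 were lower than the other arrays.

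**Figure D2:**
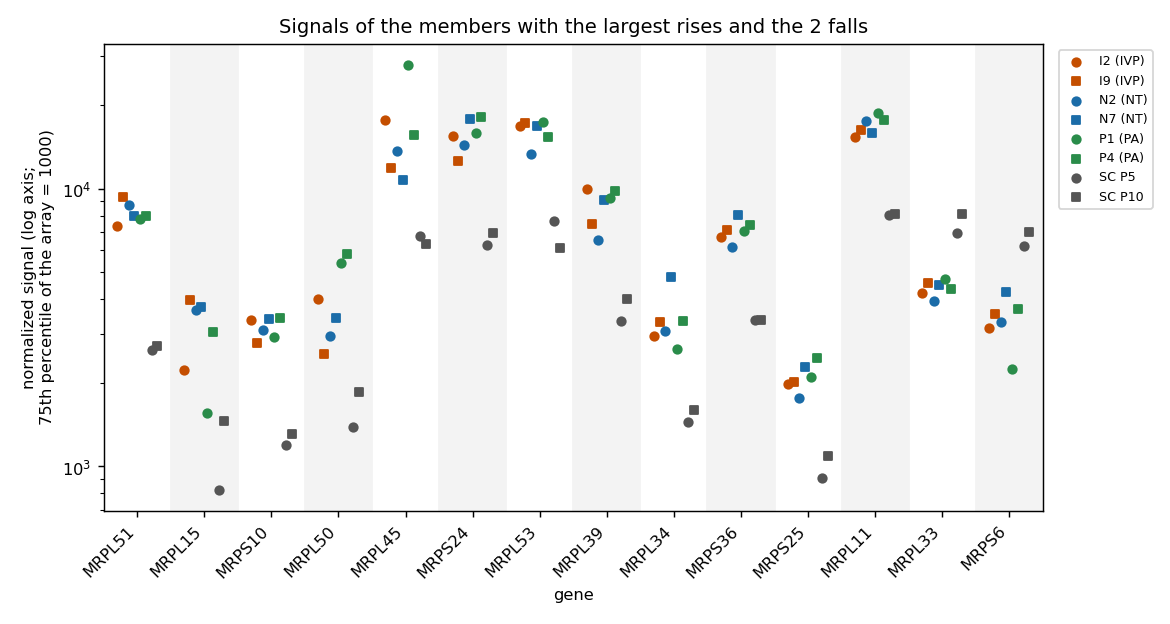
Normalized signal (log axis, 75th percentile of the array = 1000) of the 12 genes with the largest rises and the 2 with falls, with 1 point per array coloured by condition. MRPL53 is shown by its brightest probe, and other probes of it fell. Within each gene the eSLC points lie on one side of both SC points. Levels of different genes come from different probes and are not comparable.

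In the small subunit the largest rise was that of MRPS10, a protein of the head shared with bacteria. It had signals of 3363 in I2, 2791 in I9, 3099 in N2, 3393 in N7, 2915 in P1 and 3437 in P4, compared with 1193 in SC P5 and 1310.5 in SC P10. None of the eSLC arrays approached the SC arrays, and the difference was 1.34 (standard error 0.163, adjusted p = 0.00139, limma). MRPS24 read 12572 to 18069 on the 6 eSLC arrays and 6269 and 6946 on the SC arrays, a difference of 1.24 (standard error 0.176, adjusted p = 0.00252). MRPS25, a mitochondria-specific protein, read 1769 to 2458 on the 6 eSLC arrays and 907 and 1091 on the SC arrays and was 1.07 higher (standard error 0.178, adjusted p = 0.00459). For both the arrays of eSLCs and SCs did not overlap. MRPS36, the dehydrogenase subunit, had signals of 6723 in I2, 7109.9 in I9, 6149.8 in N2, 8012 in N7, 7043 in P1 and 7428 in P4, compared with 3362 in SC P5 and 3362 in SC P10, and its difference was 1.07 (standard error 0.162, adjusted p = 0.00316). The SC arrays were almost equal, and every eSLC array was above them.

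The other 26 genes called higher differed by 0.46 to 1.06. Among them MRPS16, a protein whose loss in patients impairs mitochondrial translation, was 0.79 higher (standard error 0.152, adjusted p = 0.00782, limma). MRPL28 and MRPL42 were both 1.06 higher (adjusted p = 0.00254 and 0.00343). At the edge of the call lay MRPS23, with 0.46 (adjusted p = 0.0499), and MRPS11, not called with 0.54 (adjusted p = 0.051). Of the 35 members not called, 31 had a higher and 4 a lower mean in eSLCs. MRPS12, whose bacterial counterpart lies at the decoding site, was among them (0.53, adjusted p = 0.08).

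Against this direction, MRPS6 and MRPL33 fell. MRPS6, a protein of the small subunit platform, had signals of 3147 in I2, 3537 in I9, 3306 in N2, 4237 in N7, 2237 in P1 and 3701 in P4, compared with 6198 in SC P5 and 7008 in SC P10. Every eSLC array was below both SC arrays, P1 the lowest, and the difference was -0.998 (standard error 0.239, adjusted p = 0.0175, limma). MRPL33, a small protein of the large subunit, had 4201 in I2, 4558 in I9, 3953 in N2, 4484 in N7, 4740.1 in P1 and 4351 in P4, compared with 6938 in SC P5 and 8094 in SC P10. Its eSLC arrays lay closer together than those of any other member, with an SD of 0.0928 on the log2 scale, and the difference was -0.78 (standard error 0.154, adjusted p = 0.00867). The call of MRPS6 was lost without SC P5 and without SC P10, and that of MRPL33 was kept without either.

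Each origin was then compared with SCs, and these comparisons share the SC arrays. In IVP-eSLCs 17 members were called higher (21.1% of all genes were) and 2 lower (16.5%), with a median difference of 0.53. With the slide as a block these counts were 10 and 0, and the 10 members (13.3%) lay below the 16.7% of all genes called higher. In NT-eSLCs 20 were called higher (18.9%) and 1 lower (15.7%), with a median of 0.55. In PA-eSLCs 37 were called higher (24.9%) and 2 lower (16.8%), with a median of 0.71. In the authors' normalized table the medians of IVP-, NT- and PA-eSLCs were 0.02, 0.07 and 0.73. As shares of the 75 members the calls upwards were 22.7%, 26.7% and 49.3%, so that those of IVP-eSLCs lay near the background. Without SC P5 the counts upwards were 7 in IVP- (9.33% of the members, 10.6% of all genes), 8 in NT- (10.7% and 8.59%) and 16 in PA-eSLCs (21.3% and 12.6%). Without SC P10 they were 9 (12% and 11.45%), 10 (13.3% and 10.1%) and 22 (29.3% and 14.4%). The count in IVP-eSLCs was 9 without I2 (12%, against 12.4% of all genes) and 11 without I9 (14.7% and 15.3%). That in NT-eSLCs was 13 without N7 (17.3% and 16.4%), and that in PA-eSLCs was 20 without P1 (26.7% and 14.9%) and 22 without P4 (29.3% and 17.1%).

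MRPL51, MRPS10 and MRPL33 had nearly the same difference in each origin. MRPL51 was 1.63 higher in IVP-eSLCs, 1.64 in NT-eSLCs and 1.55 in PA-eSLCs (adjusted p = 0.00175, 0.00184 and 0.00203, limma). The differences of MRPS10 were 1.29, 1.37 and 1.34, and those of MRPL33 were -0.78, -0.83 and -0.72. MRPL50 ranged more widely, with 0.99, 0.99 and 1.80. MRPS6 was called lower in IVP-eSLCs (-0.98) and PA-eSLCs (-1.20) and not in NT-eSLCs (-0.82, adjusted p = 0.0789).

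Between origins no member was called by limma. For NT- against IVP-eSLCs 0 of 75 were called (0% of all genes), and 0 reached an unadjusted p under 0.05, where 306 of all 10958 genes did. The median difference was 0.01, and the lowest p were those of MRPL47 (-0.39, standard error 0.2), MRPL32 (0.63, standard error 0.361) and MRPS18A (0.39, standard error 0.24), each with adjusted p = 1. For PA- against IVP-eSLCs 0 were called (0% of all genes) and 5 reached an unadjusted p under 0.05, where 568 of all 10958 genes did. The methods' t-test, adjusted in the same way, also gave 0 for each.

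The means of 56 of the 75 genes were higher in PA- than in IVP-eSLCs, where 5986 of all 10958 genes were. The median difference was 0.22, against 0.05 over all genes. The most similar groups shared this shift. The median was 0.24 for subunits of oxidative phosphorylation (64 of 79 higher) and 0.65 for cytosolic ribosomal proteins (80 of 81 higher). MRPL2, a protein of the large subunit core, had signals of 8136 in I2, 7963 in I9, 9147 in N2, 7645 in N7, 12638 in P1 and 13983 in P4, compared with 8390.0 in SC P5 and 8517 in SC P10. Both PA arrays were above the other 6, and the difference from IVP-eSLCs was 0.72 (standard error 0.183, adjusted p = 0.852, limma). MRPL50 differed by 0.82 and MRPL28 by 0.50, with the same adjusted p. Without I9 the median of the members was 0.13 and without P4 it was 0.136. Each lay 0.096 above all genes in place of 0.175, and quantile normalization gave 0.14. Slide 1 held both IVP arrays and slide 2 both PA arrays. NT and SC arrays lay on both slides, and a fit with the slide as a block gave a median of 0.237 with 62 genes higher.

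With the scaling to the 75th percentile, the genes were shifted as a group on every eSLC array. The median over the members of the log2 signal minus the SC mean was 0.53 in I2, 0.51 in I9, 0.46 in N2, 0.65 in N7, 0.65 in P1 and 0.82 in P4, and over all genes tested it was 0.13 to 0.27. Within slide 1 the 3 eSLC arrays against SC P5 gave a median of 0.56 (0.19 over all genes), and within slide 2 the 3 against SC P10 gave 0.57 (0.25 over all genes). In both slides 67 of the 75 members were higher in eSLCs, where 57.8% of all genes were on slide 1 and 59.6% on slide 2.

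The most similar groups were set beside them as a description. Of 79 subunits of oxidative phosphorylation tested, 38 were called higher (48.1%, against 27.5% of all genes) and 1 lower, with a median of 0.59. The one called lower was COX7A1, the heart and muscle form of a cytochrome c oxidase subunit, with a log2 difference of -7.23. Of 81 cytosolic ribosomal proteins, 3 were called higher (3.7%) and 1 lower, although 79 had a higher mean and the median was 0.43. Their median on single eSLC arrays ran from -0.33 in N7 to 1.03 in P1, while that of the mitochondrial ribosomal proteins ran from 0.46 in N2 to 0.82 in P4.

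The members that varied most among eSLCs were MRPS9, MRPL57, MRPL32, MRPS30 and MRPL15, with SDs of 0.529 to 0.622 on the log2 scale. MRPS9, a protein of the small subunit head, had signals of 186 in I2, 112 in I9, 88.1 in N2, 123 in N7, 235 in P1 and 254 in P4, compared with 125 in SC P5 and 118 in SC P10. I2, P1 and P4 were above the SC arrays and the other lines within or below their range. MRPL57 showed 1151 in I2, 2821 in I9, 2401 in N2, 2374 in N7, 1147 in P1 and 1378 in P4, compared with 1639 in SC P5 and 1688 in SC P10, and here I9, N2 and N7 were above SCs and I2, P1 and P4 below.

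MRPL32, a protein that is trimmed by the mitochondrial AAA protease before assembly, had signals of 491 in I2, 921 in I9, 862 in N2, 1253 in N7, 481 in P1 and 591 in P4, compared with 542 in SC P5 and 628 in SC P10. N7, I9 and N2 were again the highest. MRPS30, a protein of the large subunit in spite of its symbol, had 4912 in I2, 3904 in I9, 1996 in N2, 5565 in N7, 3575 in P1 and 5183 in P4, compared with 1900.4 in SC P5 and 2196 in SC P10. N2 stood within the range of the SC arrays, and limma did not call the difference of 0.96 (standard error 0.405, adjusted p = 0.0997). No member lay 2-fold or more from the eSLC mean on any eSLC array.

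**Figure D3:**
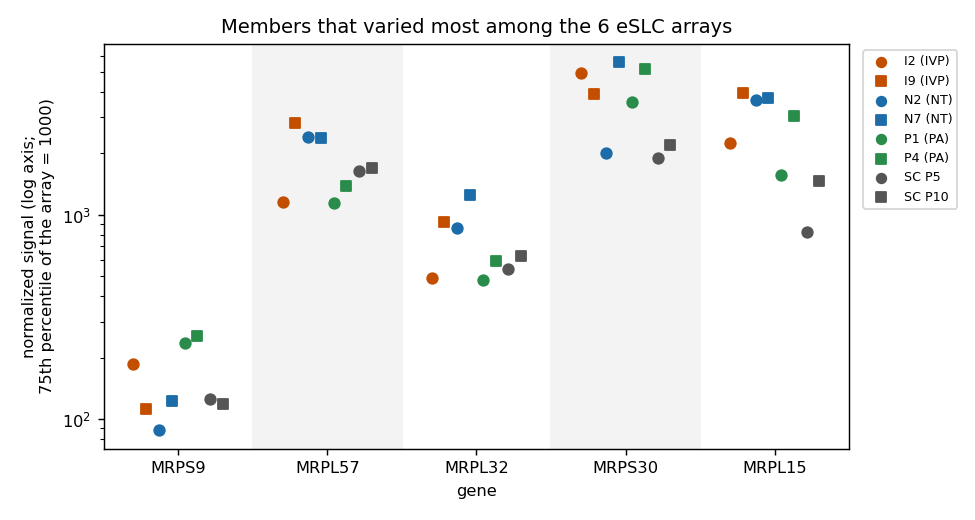
Normalized signal (log axis, 75th percentile of the array = 1000) of the 5 members with the largest SD among the 6 eSLC arrays, with 1 point per array coloured by condition. MRPL57, MRPL32 and MRPL15 are higher in I9, N2 and N7 than in I2, P1 and P4, and MRPS9 is the other way round.

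Pearson's r of log2 signals across the 75 members was 0.9403 to 0.9904 among the 15 eSLC pairs and 0.9249 to 0.9447 in the 12 eSLC-SC pairs, which all share the brightness of each probe. Across all genes tested the eSLC-SC pairs lay between 0.7632 and 0.7982. The genes are not independent replicates.

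Other genes of mitochondrial translation were taken from lists by role. Of 5 ribosome subunits with other names, 3 were called higher (60%, against 27.5% of all genes) and 0 lower (against 19.6%). DAP3, a GTP-binding protein of the small subunit, read 3023 to 4524 on the 6 eSLC arrays and 1549 and 1595 on the SC arrays and was 1.22 higher (standard error 0.143, adjusted p = 0.00118, limma). GADD45GIP1, a subunit of the large subunit, was 1.06 higher (standard error 0.218, adjusted p = 0.0102). Of 11 translation factors 4 were called higher (36.4%, against 27.5% of all genes) and 0 lower. Among them were the elongation factor TUFM (0.86, adjusted p = 0.0182, limma) and the ribosome recycling factor MRRF (0.78, adjusted p = 0.0115). None of these 4 calls held in the authors' normalized table, where the differences were 0.84 for DAP3, 0.39 for GADD45GIP1, 1.00 for TUFM and 0.02 for MRRF.

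Of 13 mitochondrial tRNA synthetases 5 were called higher (38.5%, against 27.5% of all genes) and 0 lower. MARS2, which charges methionine tRNA, read 715 to 1424 on the 6 eSLC arrays and 299 and 302 on the SC arrays and was 1.74 higher (standard error 0.269, adjusted p = 0.00348, limma). This call held in the authors' normalized table.

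Of 25 genes of ribosome assembly and rRNA modification 7 were called higher (28%, near the 27.5% of all genes) and 3 lower (12%, against 19.6%), with a median of 0.10. MPV17L2, an inner membrane protein tied to ribosome assembly, was 1.82 higher (standard error 0.277, adjusted p = 0.00325, limma), and MRM2, an rRNA methyltransferase, was 1.52 higher (standard error 0.143, adjusted p = 0.000513). In the authors' normalized table the call of MPV17L2 held and those of MRM2 (1.17), RBFA (-1.47) and GTPBP10 (-0.64) were lost. RBFA, which helps small subunit rRNA mature, read 82.1 to 136 on the 6 eSLC arrays and 195 and 205 on the SC arrays and fell by 0.98 (standard error 0.198, adjusted p = 0.00953). GTPBP10, a GTPase of large subunit assembly, fell by 0.79 (standard error 0.225, adjusted p = 0.0312), a call lost under 10 of 22 alternatives.

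For the transcription and stability of mitochondrial RNA 5 of 9 genes were called higher (55.6%, against 27.5% of all genes) and 0 lower. TFAM, which packages mitochondrial DNA and starts its transcription, had signals of 1153 in I2, 812 in I9, 650.4 in N2, 1054 in N7, 848 in P1 and 1019.6 in P4, compared with 176 in SC P5 and 199.6 in SC P10. All 6 eSLC arrays were far above both SC arrays, and the difference was 2.27 (standard error 0.254, adjusted p = 0.000985, limma). HSD17B10, a subunit of mitochondrial RNase P, was 1.20 higher (standard error 0.168, adjusted p = 0.00242), and its call was lost in the authors' normalized table (0.73, adjusted p = 0.424). Of 19 genes of import and membrane insertion 13 were called higher (68.4%) and 0 lower. The largest were TIMM8A (1.67, adjusted p = 0.00343, limma) and the chaperonin HSPE1 (1.52, adjusted p = 0.00105).

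Of 8 nuclear regulators of mitochondrial genes 2 were called higher (25%, near the share of all genes) and 1 lower (12.5%). ESRRA, a nuclear receptor that drives genes of energy metabolism, read 4276 to 6603 on the 6 eSLC arrays and 1845 and 2309 on the SC arrays and was 1.34 higher (standard error 0.164, adjusted p = 0.00142, limma). GABPB1, a subunit of the factor also called NRF2, was 0.56 higher (standard error 0.154, adjusted p = 0.0278). Neither call held in the authors' normalized table, where ESRRA differed by 0.31 (adjusted p = 0.795) and GABPB1 by 0.21 (adjusted p = 0.819). MYC, which drives ribosome production, had signals of 1640.5 in I2, 1212 in I9, 844 in N2, 2330.4 in N7, 1058 in P1 and 1485 in P4, compared with 3107 in SC P5 and 4664 in SC P10. It was lower on every eSLC array, by 1.49 (-1.49 as eSLCs minus SCs, standard error 0.425, adjusted p = 0.0313), and this call was lost under 10 of 22 alternatives.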

How the data were processed

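Total RNA of 6 eSLC lines and of SCs at 2 passages was measured on 8 one-colour arrays. The authors scanned the arrays with Feature Extraction software and normalized them in GeneSpring GX. Per the file headers, the deposited scanner output holds linear signal intensities per spot with no normalization between arrays, and the deposited series table holds linear intensities after the authors' normalization, whose scale and centring stay unknown.

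Background-subtracted signals were used, without control spots and 1 to 11 outlier spots per array. The software's processed signal served only as an alternative, because its rank correlation (Spearman) with the signal used was 0.161 to 0.216 in 6 of the 8 files, against 0.971 in N2 and 0.973 in I2. Signals were divided by the 75th percentile of the array (set to 1000), floored at 13.3 and converted to log2. Of 43653 probes 26743 were named through RefSeq accessions. Of the members 39 had over 1 probe, and the brightest probe over all arrays stood for a gene, and 6 members had a further probe of the opposite sign. Genomic positions are not given, since the array and the RefSeq table use different builds.

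The 10958 genes that were well above background on both arrays of some condition were fitted in R (version 4.3.3) with limma (version 3.58.1), using a mean per condition over all 8 arrays. Adjusted p-values (Benjamini-Hochberg) are over all of these genes. This fit was tested on simulated data. Figures used matplotlib (version 3.10.9) and Python (version 3.11.15). The background-corrected alternative (normexp, offset 50) used the median signal. A 2-fold minimum, other scalings, filters, probe rules and left-out arrays were further alternatives.

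The members and lists were chosen with earlier results of these data known. Named members are the 12 called with the largest rise and all called with a fall, the 5 with the largest SD among eSLC arrays, the 3 with the lowest p between origins and those with probes called in opposite directions. Of each other list up to 2 called genes in each direction are named, except 1 that is not reported here. Further genes (MRPL10, MRPL12, MRPL22, MRPL24, MRPL38, MRPL42, MRPL54, MRPL58, MRPL17, MRPS11, MRPS12, MRPS16, MRPS23, MRPS33, COX7A1) were chosen after their values were seen.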

Additional observations from a re-analysis of the deposited data

How the results depend on the processing

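For all eSLCs against SCs the median difference of the members kept its sign under every alternative. It was 0.43 under quantile normalization, 0.30 in the authors' normalized table and 0.77 with the processed signal. Over all genes these medians were 0.12, 0.06 and 0.44. The processed signal ranked probes unlike the signal used in most files, so that its sign lends no support. When 1 array was left out the median of the members was 0.56 to 0.65. By origin, the authors' table gave medians of 0.02 in IVP-, 0.07 in NT- and 0.73 in PA-eSLCs. Over all genes these were -0.09, -0.05 and 0.26. The members with a higher mean there numbered 38 in IVP-, 40 in NT- and 68 in PA-eSLCs. Counts of calls depended more on the choices, and the cause was not tested. For all eSLCs against SCs, 38 higher and 2 lower became 25 higher with quantile normalization, 0 and 0 with the processed signal, 1 and 1 in the authors' table, 14 and 0 with a 2-fold minimum and 16 and 1 with the SC arrays as 1 sample. Leaving out 1 array gave 14 to 39 higher and 1 to 2 lower. For IVP-eSLCs, 17 higher and 2 lower became 26 higher with normexp, 0 and 0 with the processed signal, 1 and 0 in the authors' table, 10 and 0 with a 2-fold minimum, 7 and 1 with the SC arrays as 1 sample, 3 and 0 by the methods' t-test, 10 and 0 with the slide as a block, 1 lower with no filter, and 7 to 25 higher and 0 to 2 lower without 1 array. For NT-eSLCs, 20 higher and 1 lower became 0 and 0 with the processed signal, in the authors' table and by the methods' t-test, 13 and 0 with a 2-fold minimum, 7 higher with the SC arrays as 1 sample, 11 and 0 with only the conditions compared in the fit, and 8 to 22 higher and 0 to 2 lower without 1 array. For PA-eSLCs, 37 higher and 2 lower became 23 higher with quantile normalization, 0 and 0 with the processed signal and in the authors' table, 19 and 1 with a 2-fold minimum, 19 and 0 with the SC arrays as 1 sample, 13 and 0 by the methods' t-test, 0 lower with the slide as a block, and 16 to 42 higher and 0 to 2 lower without 1 array. The share of all genes called higher moved with the setting too. With the processed signal it was 2.87% for all eSLCs and 1.69%, 2.11% and 1.48% for IVP-, NT- and PA-eSLCs, with the authors' values 13.4%, 10.2%, 10% and 11.3%, with a 2-fold minimum 19.7%, 17.7%, 15.8% and 20.3%, with the SC arrays as 1 sample 14.2%, 10.5%, 9.13% and 13.1%, and by the methods' t-test 25.9%, 4.88%, 1.51% and 10.2%. With quantile normalization it was 24.5% for all eSLCs and 21.1% for PA-eSLCs, and with only the conditions compared 14.2% for NT-eSLCs. The members' shares with the SC arrays as 1 sample were 21.3%, 9.33%, 9.33% and 25.3%. With normexp 19% of all genes and 34.7% of the members were called higher in IVP-eSLCs. Without I9 and N2 together, an alternative chosen after seeing the data, as were the fit within each slide and the fit with all eSLC arrays as 1 condition, the lower counts were 1 for all eSLCs, 1 for IVP-, 0 for NT- and 1 for PA-eSLCs. Between origins the counts were 0 under every alternative run. With only the conditions compared there was no further fit for all eSLCs, which use every array. The difference of MRPL53 was -0.032 with the mean of its probes, and that of MRPL34 was -0.71 with the processed signal. Of the 38 genes called higher, 9 stayed called under every alternative other than the processed signal, the authors' table, the 2-fold minimum and the methods' t-test, which this count leaves out. They were MRPL11, MRPL28, MRPL42, MRPL51, MRPS10, MRPS16, MRPS24, MRPS25 and MRPS36. A left-out array that leaves 1 in its condition is assumed to vary like the others.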

Other observations

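MRPS33, a mitochondria-specific protein of the small subunit, and MRPL12 of the stalk shared the split of the lines seen in MRPL57, MRPL32 and MRPL15. MRPS33 had normalized signals of 14595 in I2, 24794 in I9, 22812 in N2, 21733 in N7, 13359.9 in P1 and 13384 in P4, compared with 11269 in SC P5 and 9123 in SC P10. MRPL12 had 2056 in I2, 3211 in I9, 3055 in N2, 3245 in N7, 1914 in P1 and 2584 in P4, compared with 1349.8 in SC P5 and 1588 in SC P10. I9, N2 and N7 were above I2, P1 and P4 in both genes, which were chosen after their values were seen and were not tested. In MRPL28, MRPL39, MRPL45 and MRPL50 the split ran the other way, as in MRPS9. The members with either split were not counted. Over the 75 members the array nearest to N7 by Pearson's r was I9 (0.9844), and over all genes tested it was P4 (0.966). I9 and N2 were nearest to each other in both (0.9879 over the members, 0.9939 over all genes), and I2 and P4 likewise (0.9904 and 0.9868). These correlations are across genes of 1 list, share the brightness of each probe, and are given as a description.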
